A study of Homo sapiens with 5 samples.

Results

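Nuclear-encoded respiratory chain subunits were examined in human HCT116 cells, an established colorectal carcinoma line, from a derivative that lacks Dicer, the enzyme that cuts microRNA precursors into mature microRNAs. The study asked how methylated microRNAs act on target mRNA degradation, and the control cells were Dicer knockouts too. There were 5 libraries of total RNA, 1 for each transfected RNA. These were let-7a in a native and a methylated form (label 19A), miR-17 in a native and a methylated form (label 13A), and a negative control. The sources used here do not state the chemistry of the methyl group, the dose, the time after transfection or whether the knockout line was 1 clone. The genes were taken by symbol from the deposited table: NDUFA, NDUFB, NDUFC, NDUFS and NDUFV numbers, NDUFAB1, SDHA to SDHD, CYC1, and every symbol starting with UQCR, COX4 to COX8 or ATP5. Symbols that end in P and a number, a form used for pseudogenes, were left out. This gave 86 of 57773 gene entries, with 35 members of complex I, 3 of complex II, 10 of complex III, 18 of complex IV, 16 of complex V and 4 that are not subunits of a complex. A filter of 1 TPM (transcript abundance scaled for length and library), applied to the mean over the 5 libraries, was passed by 78 members and by 14177 entries in all. Since each group is a single library, the differences below cannot be set against replicate spread, and no test between groups was possible.

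The respiratory chain sits in the inner mitochondrial membrane. Complex I oxidises NADH and complex II succinate, complex III passes their electrons to cytochrome c, complex IV reduces oxygen, and complex V uses the resulting proton gradient to make ATP. Most subunits are encoded in the nucleus and imported, while the mitochondrial genome encodes a small set of core subunits of complexes I, III, IV and V, so each of these is built from RNAs made in both compartments.

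A microRNA guides Argonaute to mRNAs mainly through its seed, bases 2 to 8 from its 5′ end. The mature sequences of both transfected microRNAs are shown because the sites described further on are matches to them. They are RefSeq sequences (GRCh38.p14), not the study's oligonucleotides, with the seed in capitals. The label numbers 19 and 13 were read as positions, and RefSeq has an adenosine at each.
hsa-let-7a-5p: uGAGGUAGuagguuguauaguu
hsa-miR-17-5p: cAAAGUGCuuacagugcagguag
The let-7a sequence of 22 bases is encoded at 3 loci, chr9:94175962-94175983 (+), chr11:122146568-122146589 (-) and chr22:46112752-46112773 (+). The miR-17 sequence of 23 bases lies at chr13:91350618-91350640 (+). Their seeds differ.

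The tested members were abundant, with mean levels from 3.28 TPM (ATP5S) to 1368 TPM (ATP5B, the catalytic beta subunit of ATP synthase) and a median of 121 TPM. Of the colon epithelial markers EPCAM, CDH1, KRT8, KRT18, KRT19, CDX1, CDX2, VIL1 and LGALS4, 6 of 9 averaged at least 1 TPM, with a summed level of 7170 to 8792 TPM per library. CDX1 and VIL1 were listed at 0 in all 5. Of 5 immune markers only LYZ averaged at least 1 TPM, and of 5 fibroblast markers only COL1A1. Their sums ran from 4.2 to 5.5 TPM and from 11.6 to 17 TPM. The endothelial sum was at most 0.8 TPM. Between 14173 and 14396 entries reached 1 TPM per library.

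Most members were at their lowest level in the negative control. That library held the lowest of the 5 values for 51 of 78 members, against 21.2% of all tested genes, and the highest value for 1 member, NDUFV3, against 26.5%. Methylated miR-17 held the highest value for 53 members, against 12.6% of all genes, and the lowest for 0 members, against 33.9%. The 19 members lowest with methylated let-7a (24.4%, against 18.7% of all genes) included COX8A, COX6B1 and ATP5A1. By complex, the control was lowest for 25 of 35 members of complex I, 2 of 3 of complex II, 6 of 10 of complex III, 8 of 12 of complex IV and 10 of 15 of complex V.

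The differences were small and mostly in 1 direction. All are differences of log2(TPM + 1), and the 4 comparisons with the control share that single library. With native let-7a, 72 of 78 members were above the control, against 49.9% of all genes. With methylated let-7a it was 55 members, against 41.0%. Native miR-17 had 71 members higher, against 51.6%, and methylated miR-17 had 74, against 42.1%. The member medians were 0.14, 0.07, 0.22 and 0.30 in the same order, beside all-gene medians of 0.00, -0.04, 0.02 and -0.06. In bulk RNA a change in the mix of cells and a change in RNA per cell cannot be told apart.

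The direction for let-7a rested on the control. Against the mean of the miR-17 libraries, 17 of 78 members were higher with native and 6 with methylated let-7a, with medians of -0.08 and -0.17, against 54.9% and 49.4% of all genes, with medians of 0.03 and 0.00. Against the mean of the let-7a libraries the medians were 0.09 with native and 0.16 with methylated miR-17.

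Few members were far from the control. A value of TPM + 1 at least 25% above the control, a rule of size and not a test, was reached by 9 members with native let-7a (11.5%, against 12.9% of all genes), 5 with methylated let-7a (6.41%, against 9.03%) and 15 with native miR-17 (19.2%, against 18.0%). These shares lie near or below those of all genes. Methylated miR-17 had 31 such members (39.7%, against 15.1%). In the other direction 0, 0, 1 and 1 members were lower by the same factor (at least 20% lower), against 11.8%, 10.3%, 15.6% and 25.3% of all genes. No member differed 2-fold in any of the 6 comparisons, a size that 7.27% of all genes reached in at least 1 of them.

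**Figure D1:**
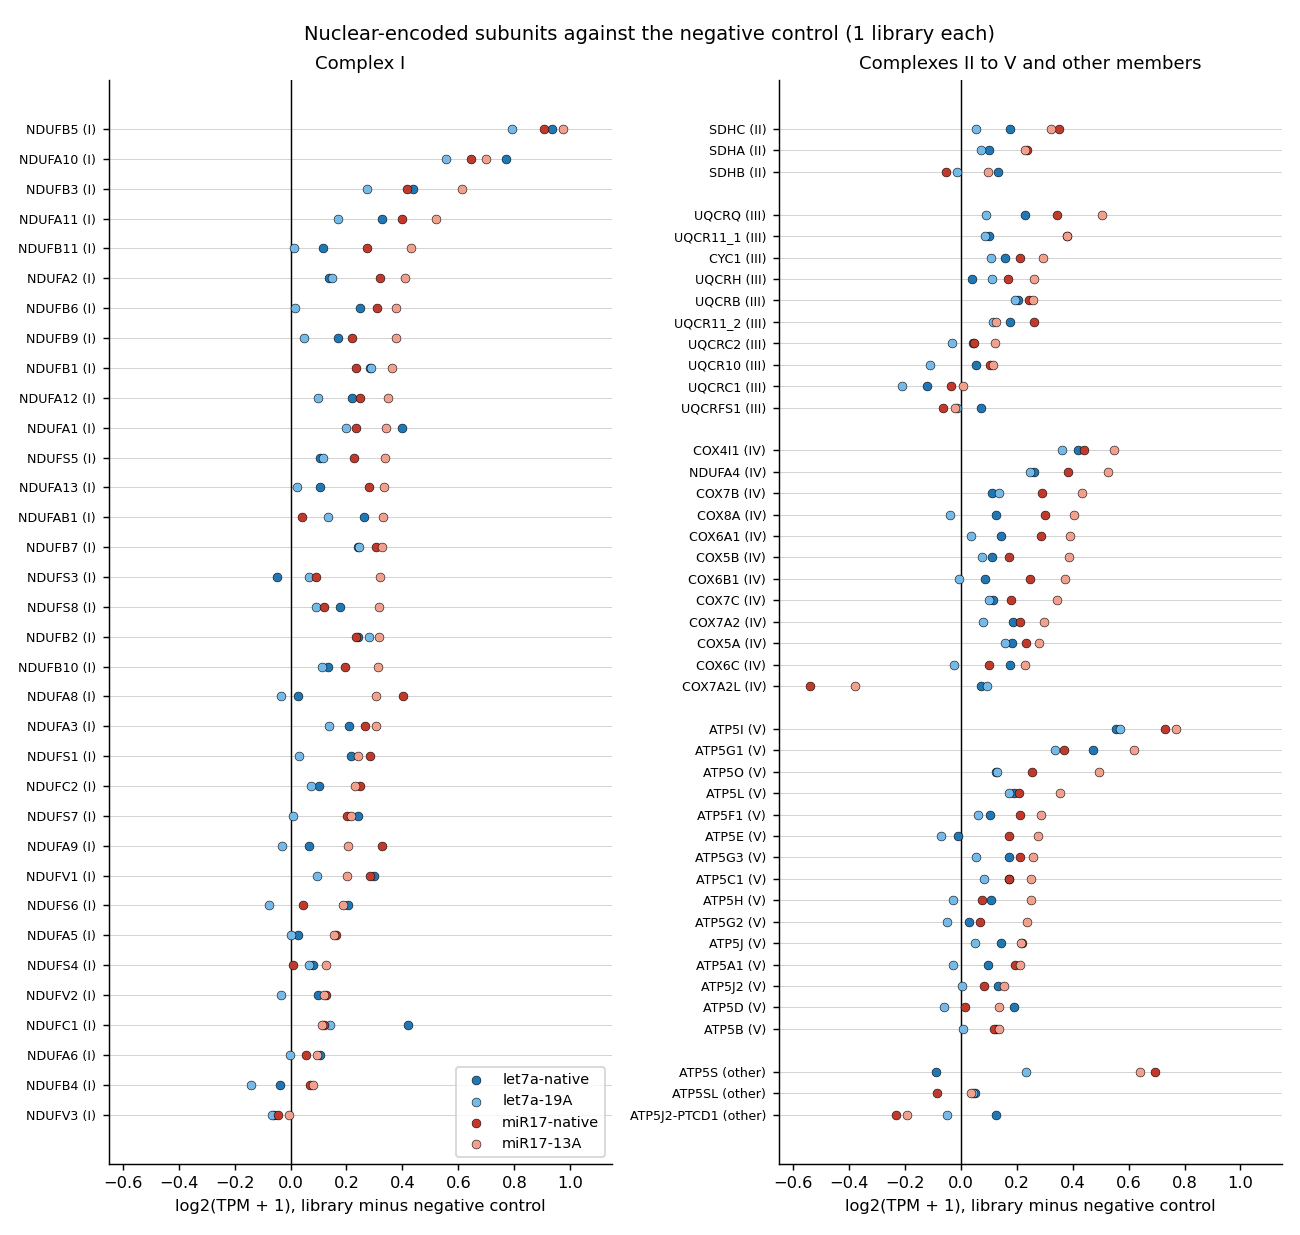
Difference of log2(TPM + 1) from the negative control for 77 of the 78 tested members, 1 point per microRNA library, with complex I on the left and the other complexes on the right. Most points lie to the right of 0, NDUFB5 reaches 0.98 and COX7A2L lies at -0.54 and -0.38 in the miR-17 libraries.

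Transcript length moved with the same differences. In GENCODE 29 the members' longest transcripts had a median of 1586 nucleotides, against 3616 for all tested protein-coding genes. Below 1000 nucleotides the medians of all coding genes were 0.16 and 0.08 (native and methylated let-7a) and 0.17 and 0.24 (native and methylated miR-17). The 22 members of that class had 0.14, 0.09, 0.24 and 0.33. From 5000 nucleotides on, all coding genes had -0.06, -0.06, -0.07 and -0.23, and the 8 members had 0.14, 0.04, 0.27 and 0.25.

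The members' medians varied less with length than those of all genes. After the median of the same length class was subtracted, an alternative chosen after the data were seen, the member medians were 0.06, 0.05, 0.12 and 0.17, with 53, 54, 58 and 65 of 78 members above 0. Of all tested coding genes 49.1% were then above 0 with native let-7a, since the subtraction puts the median of each class at 0. The part of length in the members' differences beyond this was not tested.

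**Figure D2:**
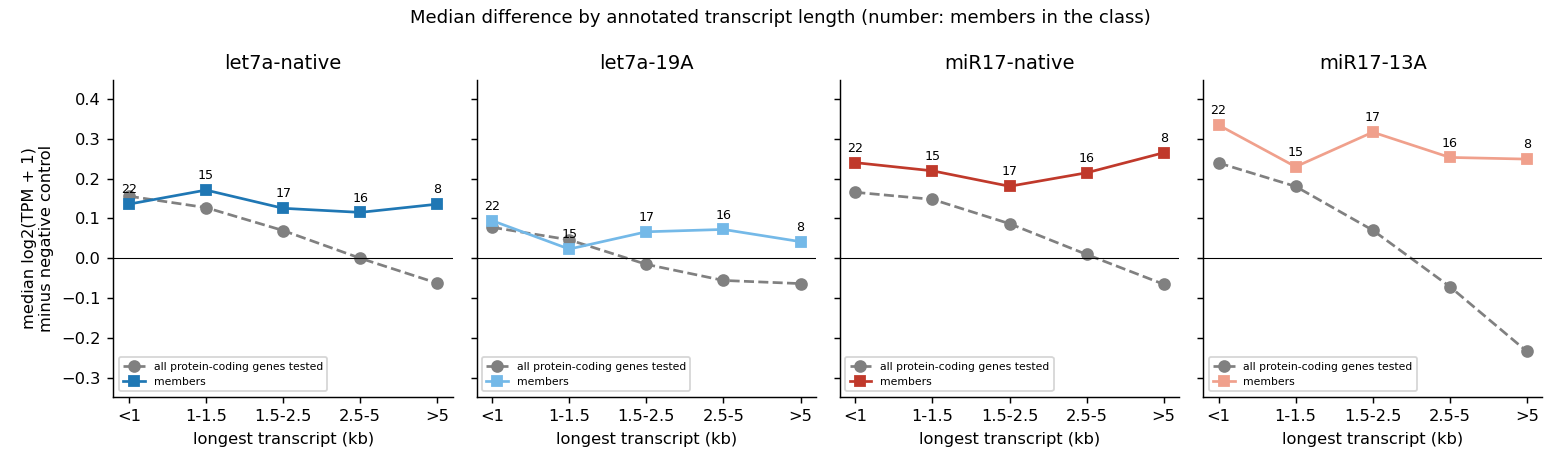
Median difference of log2(TPM + 1) from the control by longest annotated transcript, in kilobases, for members (squares, with their number) and all tested protein-coding genes (grey circles). Below 1 kb both sets lie near each other with let-7a, and from 5 kb on the members stay above 0 in all 4 libraries while all genes lie below 0.

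Cytosolic ribosomal protein genes, another set of short and abundant mRNAs, had medians of 0.17, 0.16, 0.16 and 0.30 over 84 genes. Mitochondrial ribosomal protein genes (78 genes) had 0.13, 0.01, 0.11 and 0.17. Over all genes that averaged 50 TPM or more the medians were 0.04, -0.03, 0.04 and 0.02, and over the 63 such members 0.14, 0.07, 0.21 and 0.30.

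Complex I is the NADH dehydrogenase. Its 7 nuclear core subunits bind NADH, the flavin and the iron-sulfur clusters. NDUFV1, which holds the flavin and the NADH site, had 69.8 TPM in the control, 86.1 and 74.6 with native and methylated let-7a, and 85.3 and 80.4 with native and methylated miR-17. NDUFV2, its iron-sulfur partner, had 108.9, 116.5, 106.3, 118.9 and 118.3 TPM in the same order of libraries. NDUFS1, the large iron-sulfur subunit, had 23.2, 27.1, 23.7, 28.5 and 27.6 TPM. For NDUFV1 and NDUFS1 the methylated let-7a value was the nearest to the control, and for NDUFV2 it was below it.

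NDUFS3, a core subunit of the peripheral arm, had 37.2, 35.9, 39.0, 39.7 and 46.7 TPM. The iron-sulfur subunit NDUFS7 had 17.7, 21.1, 17.8, 20.5 and 20.7 TPM, and NDUFS8, another one, had 50.3, 57, 53.6, 54.7 and 62.9. Methylated let-7a and the control thus stood within 0.1 TPM of each other for NDUFS7.

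The 28 accessory subunits of complex I surround the core. NDUFB5, a membrane arm subunit, showed the widest difference of any member, with 19.6 TPM in the control, 38.4 and 34.7 with native and methylated let-7a, and 37.6 and 39.5 with native and methylated miR-17. NDUFA10 had 23.2 TPM in the control and 40.3, 34.6, 36.8 and 38.3 TPM in the microRNA libraries. Here the control stood apart from 4 libraries that lay close together, at log2 differences of 0.79 to 0.98 for NDUFB5 and 0.56 to 0.77 for NDUFA10. NDUFC1 was high with native let-7a alone, at 121.4 TPM, against 90.5 in the control and 98.0 to 99.9 elsewhere.

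NDUFB4 and NDUFV3 differed from most accessory subunits. NDUFB4 had 215.3, 209.9, 195.1, 226.0 and 227.5 TPM, so both let-7a libraries were below the control. NDUFV3, a small subunit of the NADH-binding module, hardly moved, with 18.9, 18.1, 18.0, 18.3 and 18.8 TPM. NDUFA8 and NDUFA9 were highest with native miR-17, whereas 53 of 78 members were highest with methylated miR-17. NDUFA8 had 126.5, 129.0, 123.4, 167.4 and 156.5 TPM and NDUFA9 22.7, 23.8, 22.2, 28.7 and 26.3.

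Over complex I as a whole, the median differences were 0.20 and 0.07 for native and methylated let-7a and 0.23 and 0.32 for the miR-17 forms. With methylated miR-17, 16 of 35 members were at least 25% higher, against 15.1% of all genes. The 7 core subunits had 0.21, 0.03, 0.20 and 0.24 and the 28 accessory subunits 0.19, 0.11, 0.24 and 0.33.

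Complex II is succinate dehydrogenase, shared with the tricarboxylic acid cycle. SDHA, its flavoprotein, had 39.8, 42.8, 41.9, 47.1 and 46.9 TPM. SDHB, the iron-sulfur subunit, had 122.9, 134.8, 121.7, 118.5 and 131.5, and SDHC, a membrane anchor, had 124.3, 140.6, 129.2, 159.0 and 155.6. SDHA and SDHC were highest with miR-17, whereas SDHB was lowest with native miR-17. SDHD, the other anchor, is listed under SDHD_1 and SDHD_2, which the symbol rule does not match. Their sum was 127.8, 145.9, 127.5, 129.3 and 137.5 TPM.

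The table likewise lists NDUFA7 and NDUFB8 of complex I only under numbered entries. The summed NDUFA7 entries had 83.8, 92.2, 78.5, 90.7 and 132.2 TPM, and the NDUFB8 entries 90.7, 108.8, 95.2, 103.6 and 115.2. From native to methylated miR-17, NDUFA7_1 went from 45.9 to 41.7 TPM and NDUFA7_2 from 44.8 to 90.5, so the rise of the sum came from NDUFA7_2. How reads were divided between such entries is not known, and the same holds for UQCR11_1 and UQCR11_2, which are members and summed to 209.9, 227.4, 223.9, 269.8 and 266.2 TPM.

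Complex III, the cytochrome bc1 complex, had the lowest median of the 5 complexes with native let-7a. CYC1, cytochrome c1, had 274.9, 307.2, 296.2, 318.8 and 337.2 TPM. UQCRFS1, the Rieske iron-sulfur protein, had 204.1, 214.9, 202.2, 195.1 and 201.1, and both miR-17 values were below that of the control. The core proteins also differed from each other: UQCRC2 had 109.4, 112.9, 107.0, 113.1 and 119.2 TPM, while UQCRC1 had 210.4, 193.5, 181.9, 205.6 and 211.8.

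UQCRC1 was the member with the lowest difference in both let-7a libraries, at -0.12 and -0.21. UQCRH, the hinge protein, had 528.7, 544.3, 571.4, 594.3 and 634.2 TPM, lowest in the control. UQCR10 had 218.4, 227.0, 202.5, 234.8 and 236.8 TPM. The 10 members had medians of 0.09, 0.09, 0.19 and 0.19, with 2 of them at least 25% higher with methylated miR-17, a share near the 15.1% of all genes.

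Complex IV is cytochrome c oxidase. Of its 18 members 12 passed the filter, and the 6 others, COX4I2, COX6A2, COX6B2, COX7A1, COX7B2 and COX8C, are the lung, muscle or testis isoforms. The highest of their values was 0.8 TPM, and COX6A2 and COX7B2 were listed at 0 throughout. The 11 ubiquitous subunits, which include NDUFA4 but not COX7A2L, ranged upward from 64.3 TPM (COX7B in the control). All 11 were higher with methylated than with native miR-17, against 28.4% of all genes. COX4I1, the largest nuclear subunit, had 355.1, 475.2, 456.3, 482.9 and 519.6 TPM, with the control apart from the rest at log2 differences of 0.36 to 0.55.

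COX5A, a subunit on the matrix side, had 205.6, 233.4, 229.6, 241.6 and 249.7 TPM. The zinc-binding COX5B had 237.9, 256.9, 251.0, 268.2 and 311.5. COX6A1 had 793.6, 877.4, 813.7, 969.3 and 1040.2, COX6B1 had 471.5, 501.2, 469.5, 559.9 and 611.5, and COX8A had 847.7, 925.8, 825.1, 1045.3 and 1121.5. For these 5 genes the order from native miR-17 to methylated miR-17 was upward and from native let-7a to methylated let-7a downward, with methylated let-7a below the control for COX6B1 and COX8A. COX7A2 had 195.9, 223.3, 206.9, 227.1 and 241.0 TPM and COX7B 64.3, 69.6, 70.8, 78.9 and 87.1.

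COX7A2L, a factor of respiratory supercomplexes related to COX7A2, went the other way with miR-17. It had 76.8 TPM in the control, 80.9 and 82.1 with native and methylated let-7a, and 52.5 and 58.9 with native and methylated miR-17. It was the member at least 20% lower in each miR-17 library, at -0.54 and -0.38 against the control. Against the mean of the let-7a libraries, which does not use the control, the values were -0.62 and -0.46. Complex IV had medians of 0.14, 0.09, 0.24 and 0.38, and 8 of 12 members were at least 25% higher with methylated miR-17, against 15.1% of all genes.

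Complex V is the ATP synthase. The F1 subunits alpha, beta and gamma, ATP5A1, ATP5B and ATP5C1, form its catalytic head. ATP5A1 had 496.8, 531.8, 487.4, 568.8 and 575.3 TPM, ATP5B had 1295.2, 1412.7, 1303.3, 1406.4 and 1423.7, and ATP5C1 had 158.4, 178.5, 167.7, 178.5 and 188.8. The 5 F1 subunits had medians of 0.13, -0.03, 0.17 and 0.21, so that with methylated let-7a they lay near the control. ATP5D, the delta subunit, had 226.6, 259.0, 217.5, 229.1 and 249.2 TPM.

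In the membrane part, ATP5I (subunit e, which supports dimers) had 180.1 TPM in the control, 265.3 and 267.9 with native and methylated let-7a, and 299.3 and 307.6 with native and methylated miR-17. Subunit c, which forms the rotor ring, is encoded by 3 genes with the same mature protein. ATP5G1 had 51.9, 72.5, 65.9, 67.3 and 80.3 TPM, ATP5G2 had 208.2, 212.4, 201.1, 218.4 and 245.7, and ATP5G3 had 91.2, 103.0, 94.7, 105.8 and 109.2. ATP5G1, the least abundant of them, was the furthest above the control in every library, at 0.34 to 0.62. ATP5L2 was listed at 0 throughout. Complex V had medians of 0.13, 0.05, 0.19 and 0.25.

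NDUFB5, NDUFA10, ATP5I, COX4I1 and ATP5G1 were the 5 members at least 25% higher with methylated let-7a. They are 6.41% of the members, against 9.03% of all genes. In each of them the control was the lowest library, which picking them by their height above the control favours. All 4 comparisons rest on that control.

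**Figure D3:**
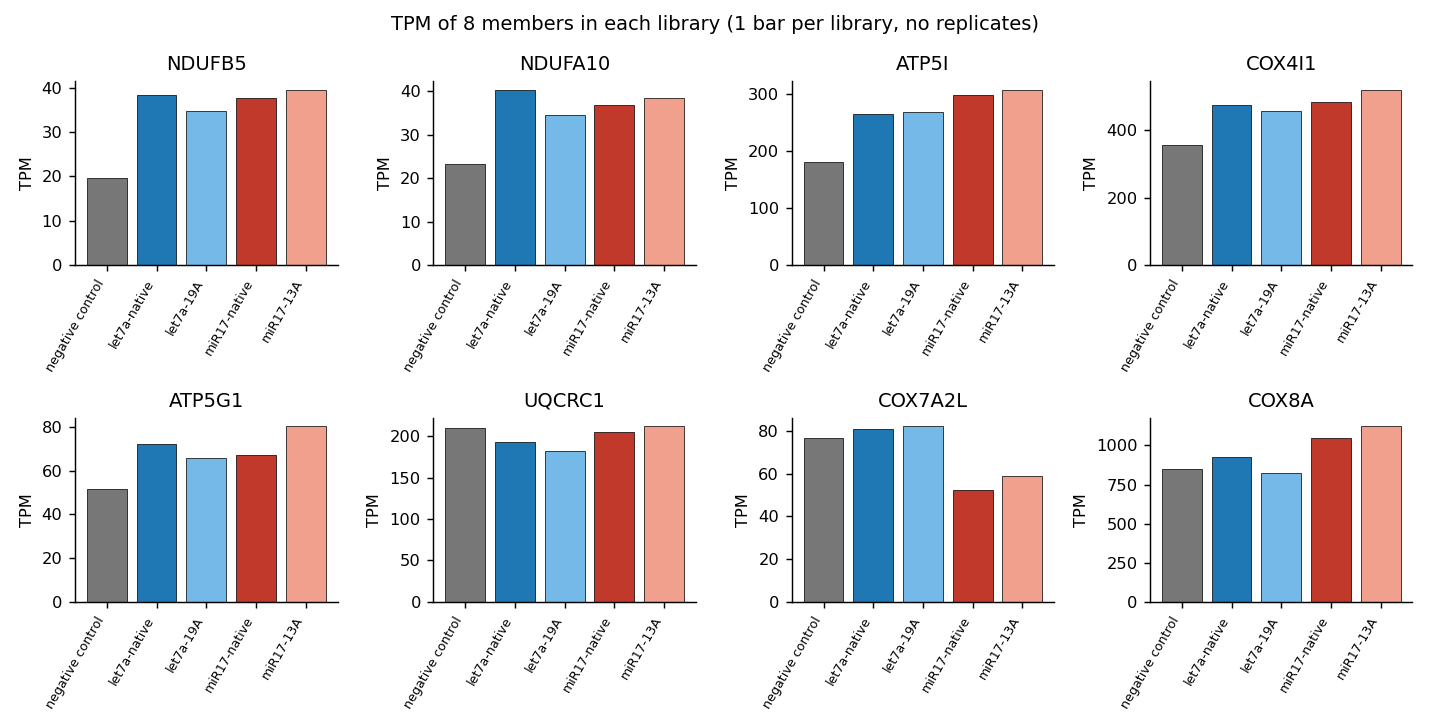
TPM of 8 members, 1 bar per library with no replicates. The control bar is the lowest for NDUFB5, NDUFA10, ATP5I, COX4I1 and ATP5G1, while COX7A2L is low in the miR-17 libraries and UQCRC1 in the let-7a libraries.

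There were 4 members that are not subunits. ATP5S, coupling factor B, was low, with 2.4, 2.2, 3.0, 4.5 and 4.3 TPM, and its log2 values of 0.69 and 0.64 with miR-17 rest on about 2 TPM. ATP5SL, an assembly factor of complex I despite its symbol, had 65.9, 68.3, 67.9, 62.1 and 67.7 TPM. ATP5J2-PTCD1, a readthrough of neighbouring genes, had 11.1, 12.2, 10.7, 9.3 and 9.6 TPM, and ATP5J2LP was listed at 0. For none of the 3 tested was the control the lowest library.

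Summed over the 82 members that are subunits, the nuclear level was 13926 TPM in the control, 15529 and 14629 with native and methylated let-7a, and 16165 and 17163 with native and methylated miR-17. As a share of the library this was 1.39%, 1.55%, 1.46%, 1.62% and 1.72%. Relative to the control the sums were 1.12, 1.05, 1.16 and 1.23 times as high. With methylated miR-17 the ratio was 1.24 for complex I, 1.16 for complex II, 1.17 for complex III, 1.30 for complex IV and 1.19 for complex V.

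The 13 mRNAs of the mitochondrial genome went the opposite way. Their sum was 126241 TPM in the control, 100018 and 116562 with native and methylated let-7a, and 109047 and 93563 with native and methylated miR-17, or 0.792, 0.923, 0.864 and 0.741 times the control. The summed mitochondrial level per summed nuclear level was 9.07 in the control, 6.44 and 7.97 with let-7a, and 6.75 and 5.45 with miR-17. Of the 13 mRNAs 0, 2, 0 and 0 were above the control in the 4 libraries. MT-CO1, of the catalytic core of complex IV, had the lowest mean difference, with 18547.7, 12058.7, 14696.0, 13947.0 and 11781.3 TPM. MT-ND3 had the highest, with 4722.6, 4245.5, 4497.0, 4082.9 and 3845.4.

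TPM is a share of the library. The 13 mitochondrially encoded mRNAs held 9.36% to 12.6% of it and ribosomal protein genes 14.3% to 17.8%. After both sets were left out and the rest rescaled, the summed nuclear level was 1.10, 1.06, 1.16 and 1.24 times the control, so these ratios were about as large without them.

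**Figure D4:**
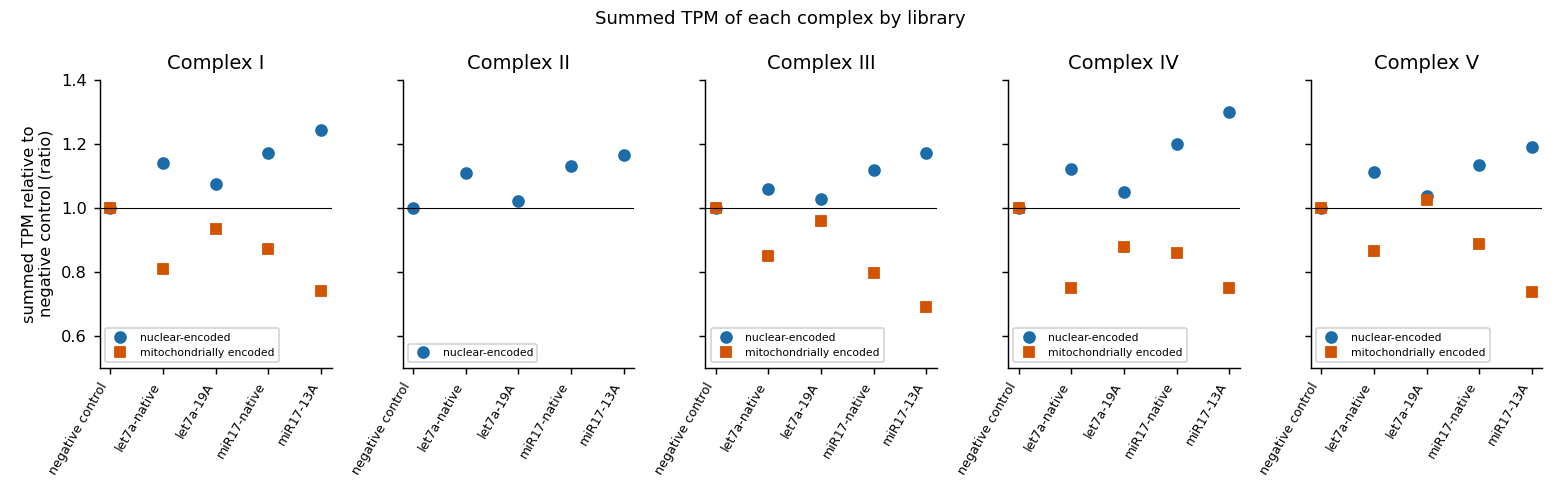
Summed TPM of nuclear-encoded members (circles) and of mitochondrially encoded mRNAs (squares) of each complex, as a ratio to the negative control, 1 point per library. Nuclear sums lie above 1 in every microRNA library, and mitochondrial sums lie below it except complex V with methylated let-7a (1.02).

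Methylated and native forms differed in opposite directions for the 2 microRNAs. With methylated let-7a, 12 of 78 members were higher than with native let-7a, against 39.8% of all genes, and the member median was -0.09, beside -0.03 for all genes. With methylated miR-17, 65 members were higher than with native miR-17, against 28.4%, with medians of 0.08 and -0.09. These comparisons share no library. Lower with methylated let-7a and higher with methylated miR-17 was the pattern of 54 members, against 18.8% of all genes, and the opposite pattern that of 1 member, ATP5S, against 29.7%. After rescaling without mitochondrially encoded and ribosomal protein genes, 26 members were higher with methylated let-7a, against 49.7% of all genes.

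The sizes were small. With methylated let-7a, 1 member was at least 25% higher (ATP5S, against 5.24% of all genes) and 0 were at least 20% lower (7.15%). With methylated miR-17 the counts were 0 (3.63%) and 0 (11.2%). The lowest with methylated let-7a were NDUFS6 (-0.28), NDUFC1 (-0.28) and ATP5D (-0.25), and the highest ATP5S (0.32), NDUFS3 (0.12) and UQCRH (0.07). NDUFS6, a zinc-binding subunit of complex I, had 95.3, 110.0, 90.3, 98.3 and 108.7 TPM.

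With methylated miR-17 the highest were NDUFAB1 (0.29), ATP5G1 (0.25) and ATP5O (0.24), and the lowest UQCR11_2 (-0.13), NDUFA9 (-0.12) and NDUFA8 (-0.10). NDUFAB1, the mitochondrial acyl carrier protein, had 125.9, 151.1, 138.1, 129.5 and 158.6 TPM. ATP5O, the stalk subunit that links F1 to the membrane part, had 153.3, 167.3, 167.7, 182.9 and 216.2. The 12 members of complex IV had a median of 0.13 and were all higher with the methylated form. The mitochondrially encoded mRNAs again went the other way, with 13 of 13 higher with methylated let-7a (median 0.21) and 0 of 13 higher with methylated miR-17 (median -0.24). Cytosolic ribosomal protein genes had medians of 0.01 and 0.14, and mitochondrial ribosomal protein genes -0.10 and 0.04. All coding genes with longest transcripts below 1000 nucleotides had -0.08 and 0.08, and the 22 members of that class had -0.10 and 0.10. From 1500 to 2500 nucleotides all coding genes had -0.08 and -0.01, and the 17 members -0.08 and 0.12. From 2500 to 5000 nucleotides the values were -0.04 and -0.09 for all coding genes and -0.07 and 0.07 for the 16 members. From 5000 nucleotides on they were 0.01 and -0.17, against -0.11 and -0.02 for the 8 members. The part of length was not tested.

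**Figure D5:**
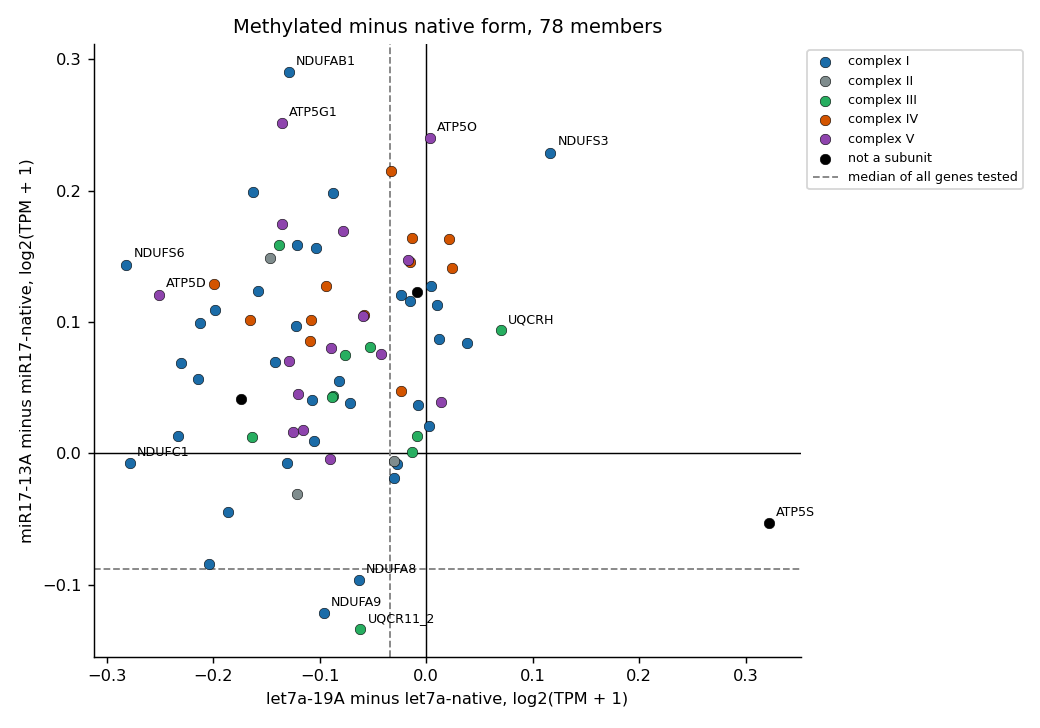
Difference of log2(TPM + 1) between methylated and native let-7a (horizontal axis) and between methylated and native miR-17 (vertical axis), 1 point per member, coloured by complex, with solid lines at 0 and dashed lines at the medians of all tested genes. About the solid lines, the upper left field holds 54 of the 78 members and the lower right field 1 (ATP5S).

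Other genes of the pathway were read from lists, whose counts stand beside 49.9%, 41.0%, 51.6% and 42.1% of all genes above the control in the 4 libraries. Of 48 assembly factors, which build the complexes without staying in them, 36 (75%), 25 (52.1%), 37 (77.1%) and 33 (68.8%) were above the control, with medians of 0.10, 0.01, 0.17 and 0.17. FOXRED1, of complex I assembly, had 6.9, 9.0, 7.7, 13.1 and 12.9 TPM, the highest mean difference of its list, and NUBPL, which delivers iron-sulfur clusters, had 2.8, 2.0, 2.9, 2.6 and 2.6, the lowest. For complex IV, COA3 had 34.4, 41.4, 40.0, 48.7 and 50.4 TPM and PET117 had 39.9, 34.6, 35.3, 35.5 and 27.9. The quartiles of the assembly factors were wider apart than those of the members, at -0.05 and 0.31 with methylated miR-17 against 0.19 and 0.38. SDHAF2, which adds the flavin to SDHA, had 28.8, 29, 27.4, 19 and 24.7 TPM, and ACN9, of the same list, had 13.3, 19.2, 18.1, 19.1 and 21.2. BCS1L, which inserts the Rieske protein, had 14.7, 19.8, 16.2, 19.1 and 22.0, and TTC19, also of complex III, had 38.0, 42.0, 35.6, 43.1 and 38.4. For complex V, ATPAF2 had 11.2, 11.7, 10.6, 13.5 and 15.2 TPM and ATPAF1 had 22.3, 21.3, 21.2, 27.4 and 26.6, so both were highest with miR-17.

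CYCS, cytochrome c itself, had 94.7, 114.4, 111.8, 115.7 and 120.2 TPM and was lowest in the control, as most subunits were. ATPIF1, the inhibitor of complex V, had 126.7, 141.0, 128.6, 127.2 and 133.4, and NDUFA4L2, a relative of NDUFA4, was low at 1.3, 2.2, 1.5, 2.2 and 1.5.

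Of 14 tricarboxylic acid cycle enzymes 9 (64.3%), 7 (50%), 10 (71.4%) and 10 (71.4%) were above the control, with medians of 0.07, 0.00, 0.14 and 0.13. Fumarase, FH, had 45.6, 59.0, 56.6, 65.5 and 65.6 TPM and SUCLG2, of succinyl-CoA ligase, had 65.3, 55.2, 52.0, 54.6 and 55.3. Of 12 outer membrane and import proteins 10 (83.3%), 7 (58.3%), 10 (83.3%) and 9 (75%) were above it. HSPD1, the matrix chaperonin, had 526.3, 803.5, 733.5, 649.7 and 656.1 TPM. VDAC1, the outer membrane channel, had 254.7, 293.5, 278.4, 207.1 and 217.1, and was lowest with the miR-17 forms.

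Of 12 tested regulators of mitochondrial biogenesis, 6 (50%), 7 (58.3%), 4 (33.3%) and 2 (16.7%) were above the control, with medians of 0.04, 0.10, -0.03 and -0.06. YY1, a transcription factor of many of these genes, had 76.3, 59.4, 68.2, 58.9 and 54.0 TPM, and TFB1M, a mitochondrial rRNA methyltransferase, had 20.8, 23.7, 22.9, 28.1 and 26.9.

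Seed sites were searched in the longest 3′ untranslated region of complete coding transcripts in GENCODE 29, for 12019 genes. Sites were CTACCTC or TACCTCA for let-7a and GCACTTT or CACTTTA for miR-17, and an 8mer holds both overlapping forms. The members' longest 3′ regions were also shorter, with a median of 450 nucleotides over the 78 tested. For all tested coding genes with a 3′ region of at least 50 nucleotides, a limit not set for the members' median, it was 1357. The part of length was not tested. Of 77 members searched, 8 held a let-7a site (10.4%, against 17.9% of all) and 18 a miR-17 site (23.4%, against 31.5%). An 8mer for miR-17 was found in COX7A2L and NDUFS1 (2.60% of members, against 5.52% of all). They are printed, as DNA with the match in capitals, because they set the longest kind of miR-17 match beside these genes' levels.
COX7A2L, miR-17 site: acctgtttagtgttGCACTTTAgactgg
NDUFS1, miR-17 site: ttaatagttacataGCACTTTAgtttgc
These start at base 593 of 1881 and 5893 of 9368 of their 3′ untranslated regions.

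The levels of these genes differed. COX7A2L was lower with both forms of miR-17 (-0.54 and -0.38), and NDUFS1 with the same 8 letters was higher (0.29 and 0.24). The TPM values are per gene, so whether the transcripts measured held these sites is not known. Over the 18 members with a miR-17 site the medians were 0.23 and 0.26 with native and methylated miR-17, against 0.22 and 0.30 for the 59 without. All genes with a site had -0.09 and -0.21, those with an 8mer -0.28 and -0.43, and those without a site 0.05 and -0.02. The 8 members with a let-7a site had 0.14 and 0.04 with native and methylated let-7a, against 0.14 and 0.07 for those without. All genes with a let-7a site had -0.07 and -0.07, and those without 0.02 and -0.04.

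Promoter letters were compared with those of other genes. RefSeq promoters (GRCh38.p14, 250 bases before to 50 after the start) were matched for 61 of 78 members and searched on both strands. GCGCANGC, for the nuclear respiratory factor NRF1, was in 41.0% of them, against 12.5% of 27305 promoters and 21.9% of 9860 tested coding genes. AANATGGC, for YY1, was in 34.4%, against 6.82% and 10.3%. ACTTCCGG, for GABPA and other ETS factors, was in 13.1%, against 4.44% and 9.07%, and TCAAGGTC, for estrogen-related receptors, in 0 of 61, against 0.853% and 0.527%. Such matches describe the letters and are not shown to be bound here.

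A pair of promoters shows these motifs in capitals, for ATP5I, among the 3 members furthest above the control in 4 comparisons, and COX8A, with COX6A1 the most abundant of complex IV. ATP5I (now ATP5ME, chr4:674227-674526, minus strand) holds 4 NRF1 matches, of which the last overlap, and COX8A (chr11:63974370-63974669, plus strand) 1 ETS and 1 YY1 match. NDUFA10, COX4I1 and ATP5G1, whose control values also stood apart, held 0 matches to the 4 motifs in this window. NDUFB5 was not among the members with a matched promoter and was not searched.
ATP5I: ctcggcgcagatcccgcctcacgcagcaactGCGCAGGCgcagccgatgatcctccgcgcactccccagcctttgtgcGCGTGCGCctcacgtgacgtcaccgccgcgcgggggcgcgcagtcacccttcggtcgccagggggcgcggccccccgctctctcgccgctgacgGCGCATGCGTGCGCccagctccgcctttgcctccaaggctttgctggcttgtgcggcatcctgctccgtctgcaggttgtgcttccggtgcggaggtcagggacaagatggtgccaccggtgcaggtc
COX8A: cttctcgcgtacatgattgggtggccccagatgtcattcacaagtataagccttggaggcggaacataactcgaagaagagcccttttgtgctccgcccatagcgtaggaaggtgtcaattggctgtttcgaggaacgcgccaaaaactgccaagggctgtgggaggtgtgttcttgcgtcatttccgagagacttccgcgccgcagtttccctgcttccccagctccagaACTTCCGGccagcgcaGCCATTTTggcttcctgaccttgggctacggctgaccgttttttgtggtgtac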

How the data were processed

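Per the labels' protocols, Isogen was used for extraction and a stranded TruSeq total RNA kit, with ribosomal depletion, for the libraries. The authors deposited 1 table of TPM values per gene, rounded to 1 decimal, each library summing to about 1000000. The genome build was hg19, per the submitters' processing notes. Which aligner, counter and annotation release were used is not given in the sources used here. Depth is unknown and TPM keeps none, so no interval or detection floor is given. How reads from pseudogenes or overlapping genes were assigned is not known.

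Differences are of log2(TPM + 1), which understates low genes, over entries averaging 1 TPM or more. The 25% and 2-fold rules are sizes, and the scripts were tested on simulated data. Named genes were core subunits, isoforms, the 3 highest and 3 lowest members of each comparison, and the extremes of each list. The members and lists were chosen with earlier results of these data known. GENCODE 29 (GRCh38) gave lengths and 3′ sequence, RefSeq the promoters and microRNAs. Tables were computed with Python 3.11.15, pandas and numpy. Alternatives covered pseudocount, filter, scaling, reference library and length. The values of 1 member are not reported here by name, though it is in every count.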

Additional observations from a re-analysis of the deposited data

Results flagged for a closer look

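The members' differences between the methylated and the native library went in opposite directions for the 2 microRNAs. The member median was -0.089119 for methylated minus native let-7a and 0.082182 for methylated minus native miR-17, in log2(TPM + 1), with 1 library in each group. The difference between these medians was not tested, and methylation cannot be told apart from other differences between single libraries.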

How the results depend on the processing

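With the mean of the other microRNA's libraries in place of the control, 17 members were higher with native let-7a (median -0.0768) and 6 with methylated let-7a (median -0.166), both opposite in direction, and the medians were 0.0860 with native and 0.162 with methylated miR-17. After the all-gene median was subtracted, the median was 0.11 for methylated let-7a against the control, -0.0552 for methylated minus native let-7a (26 members higher) and 0.17 for methylated minus native miR-17. Rescaling without mitochondrially encoded and ribosomal protein genes gave -0.0543 and 26 members higher for methylated minus native let-7a. Subtracting a median, over all genes or by class, leaves about as many genes above as below no difference. Centring by length class, chosen after seeing the data, gave 0.0604 for native let-7a, 0.117 for native and 0.175 for methylated miR-17 against the control, and -0.0272 with 28 members higher for methylated minus native let-7a. The cause was not tested. Of the 52 alternative medians 40, and of the 52 alternative counts of higher members 47, stayed within the limits set for an unchanged value. Restricting to genes of at least 50 TPM was also chosen after seeing the data and changed none. Of single members only ATP5S moved, in 3 comparisons at a pseudocount of 5. No paired analysis was possible because each group holds 1 library, and none could be left out in turn. Unknown depth limits statements on members near 1 TPM.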
